A study of Mus musculus with 12 samples.

Results

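Cirbp and Rbm3 encode the cold-inducible RNA-binding proteins, 2 of the 55414 gene records counted in splenic CD4+ T cells of mice with ligature-induced periodontitis (LIP) and of control mice (CTL). The pair was chosen by an earlier result on these libraries, the higher level of Cirbp in the LIP group on day 0, so the day 0 values of both genes are given here as a description and without a test. Each gene was found by its symbol in the authors' tables and read by its Ensembl identifier in the table of counts. All mice were wild-type male BALB/c animals aged 18 weeks. In the LIP group silk ligatures had been tied around maxillary molars, whereas the CTL group was healthy. Day 0 cells were purified and left uncultured, and day 2 cells had been stimulated in culture with IL-2 and antibodies to TCRβ and CD28. Each of the 4 groups had 3 libraries, named here by the number in their label (CTL 88, 89 and 94 and LIP 92, 93 and 94 on day 0, and CTL 92, 93 and 97 and LIP 90, 96 and 97 on day 2). The protocol names anti-CD28, but in the treatment labels of day 2 the antibody is anti-CD29 for libraries CTL 93 and LIP 96 and anti-CD30 for both libraries numbered 97.

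Cirbp and Rbm3 are closely related proteins with an RNA recognition motif followed by a glycine-rich tail. Their mRNAs are known to rise in mild hypothermia, when most protein synthesis slows, and to fall in warmed cells, the opposite of heat shock genes. Both proteins bind other mRNAs and influence their stability, polyadenylation and translation, and CIRBP released from stressed cells acts on immune cells as a danger signal through TLR4 and TREM-1. Temperature is known to act on the pair largely through alternative splicing, in which CLK kinases, the SR proteins that they phosphorylate and hnRNP proteins take part, and an Rbm3 transcript that retains a poison exon is destroyed by nonsense-mediated decay. The labels give a single temperature for the culture of the day 2 cells, whereas the day 0 cells were not cultured. Temperature and handling therefore cannot be told apart from stimulation in the comparisons of day 2 with day 0. For LIP against CTL, the sources used here do not say whether the cells of both groups were collected and handled together. The part of temperature and handling in the LIP comparisons was not tested.

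Cirbp (ENSMUSG00000045193) lies on the plus strand at chr10:79997069-80008626 in GRCm39, and GENCODE release M39 lists 26 transcripts for it, of which 15 are protein-coding, 7 are targets of nonsense-mediated decay and 4 retain an intron. Its locus is overlapped on the other strand by the long noncoding RNAs Gm67271 (727 bases shared) and Gm67261 (1481 bases shared), which were not analysed here. Rbm3 (ENSMUSG00000031167) lies on the minus strand at chrX:8004213-8012119, with 72 transcripts, of which 29 are protein-coding, 40 are targets of nonsense-mediated decay and 2 retain an intron. It shares 543 bases with the antisense noncoding RNA Rbm3os, which was counted at 3 to 32 reads per library. The expected counts of Cirbp were whole in every library, and those of Rbm3 were fractional in 7 of the 12. The processed pseudogene Rbm3-ps on chromosome 1 was at 0 in every library, which by counting error alone allows up to 3 counts, or 0.233 to 0.480 CPM depending on depth. The library kit marks strand, but whether the counting used it is not given in the sources used here, so reads from the antisense genes cannot be told apart from those of the pair. The counts summed each gene over its transcripts, so productive and poison-exon forms are not separated.

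The RefSeq promoter table (GRCm38.p6) matched Cirbp, with 2 start sites, and did not match Rbm3. The upstream sequence of the first start site is shown because it holds the motif TCCCCGCC, known as the mild-cold response element, in capitals. The printed stretch is the 250 bases before the start, at chr10:80167589-80167838 on the plus strand:

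Cirbp promoter: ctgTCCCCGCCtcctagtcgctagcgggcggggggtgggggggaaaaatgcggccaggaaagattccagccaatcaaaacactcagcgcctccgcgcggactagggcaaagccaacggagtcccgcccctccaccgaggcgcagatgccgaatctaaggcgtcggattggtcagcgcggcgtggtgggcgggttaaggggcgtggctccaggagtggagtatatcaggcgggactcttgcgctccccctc

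The motif began 247 bases before the start. Searched on both strands in windows of 300 bases (250 before and 50 after the start), TCCCCGCC occurred in 5.38% of all 32851 promoters of the table. The GC box GGGCGG, the site of Sp1-type factors, occurred 3 times in this window and 4 times in that of the second start site, and in 35.7% of all promoters. The heat shock element pair GAANNTTC, found in 7.86% of all promoters, was in neither window, and no other match overlapped TCCCCGCC. These matches describe letters only.

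The libraries held between 6249018 and 12866718 counts, and the counts behind the values were 80 to 366 per library for Cirbp and 1440 to 7094 for Rbm3. Levels are given as CPM, the counts of a gene in every 1000000 counts of its library, after TMM scaling of the 12 libraries. The T cell genes Cd3d, Cd3e, Cd3g, Cd4 and Trac summed to 1453 to 1989 CPM, Cd8a and Cd8b1 to 4.42 to 13.2 CPM, and 4 B cell genes to 0.894 to 22.1 CPM, so the markers of CD4+ T cells were present in every library. Other cells were traced by 5 myeloid genes (0.680 to 11.9 CPM in sum), 3 NK cell genes (0 to 10.1), 3 erythroid genes (0.561 to 1.91) and 6 pancreatic acinar genes (0 to 10.2). In RNA of whole samples, fewer cells of a type and less RNA per cell cannot be told apart. Nothing in the labels says whether the libraries of a group came from separate mice, so p-values measure the spread between these libraries.

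On day 0, Cirbp stood at 26.3, 30.2 and 27.6 CPM in the libraries CTL 88, 89 and 94, a mean of 28.0 ± 1.96 CPM (SD, n = 3). In the libraries LIP 92, 93 and 94 it was counted at 45.8, 51.4 and 43.7 CPM, with a mean of 47.0 ± 3.96 CPM (SD, n = 3). The lowest LIP library was above the highest CTL library, and the coefficient of variation was 6.99% in the CTL and 8.42% in the LIP group. Rbm3 was counted at 216, 186 and 261 CPM in the CTL libraries (221 ± 37.9, SD, n = 3) and at 269, 274 and 261 CPM in the LIP libraries (268 ± 6.22, SD, n = 3). Here the groups all but touched, since CTL 94 held 261.3 CPM and LIP 94 held 261.5 CPM. The 3 CTL libraries were spread widely and the 3 LIP libraries hardly at all, with coefficients of variation of 17.1% and 2.32%.

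The fitted difference between LIP and CTL on day 0 was a log2 fold change of 0.75 (SE 0.10) for Cirbp, or 1.68-fold, and 0.28 (SE 0.11) for Rbm3, or 1.22-fold. With 1 library left out it ranged from 0.68 to 0.80 for Cirbp and from 0.16 (without CTL 89) to 0.42 (without CTL 94) for Rbm3. Cirbp stood at percentile 98.6 and Rbm3 at percentile 86.5 of the log2 fold changes of the 14064 genes tested. Over all these genes, 0.427% had an adjusted p under 0.05 in either direction in edgeR's quasi-likelihood test, and 9.27% had groups that did not overlap and were higher in LIP, as both genes did. These values chose the pair, and nothing is read from them. The summed NK cell markers were 2.04 to 5.91 CPM in the CTL and 5.91 to 10.1 CPM in the LIP libraries of day 0, and the summed T cell markers were 1568 to 1698 and 1453 to 1568 CPM. Their part in the difference was not tested.

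**Figure D1:**
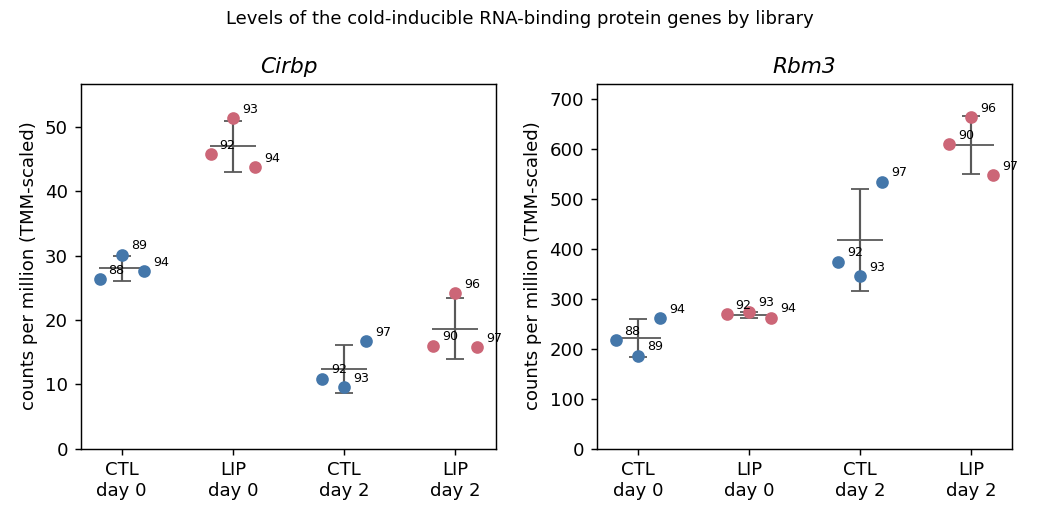
TMM-scaled levels in CPM of Cirbp (left) and Rbm3 (right) in each library, with the 4 groups on the x axis, blue points for CTL and red points for LIP, the label number beside each point, and the mean and SD in grey. Cirbp is lower and Rbm3 higher on day 2 than on day 0 in both groups, and on day 2 CTL 97 lies above the other CTL libraries for both genes.

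On day 2, after stimulation, both genes had higher means in the LIP group, but neither difference passed the threshold. Cirbp was counted at 10.9, 9.54 and 16.7 CPM in the CTL libraries (92, 93 and 97), with a mean of 12.4 ± 3.79 CPM (SD, n = 3). The LIP libraries (90, 96 and 97) held 16.01, 24.1 and 15.8 CPM, with a mean of 18.6 ± 4.75 CPM (SD, n = 3). The groups overlapped, because CTL 97 was above LIP 90 and LIP 97. Rbm3 was counted at 374, 345 and 534 CPM in the CTL libraries (418 ± 102, SD, n = 3) and at 609, 663 and 547 CPM in the LIP libraries (606 ± 58.2, SD, n = 3). For Rbm3 the lowest LIP library (97) was still above the highest CTL library (97), a separation seen in 10.9% of all genes tested on that day. The summed myeloid markers were 0.680 to 0.949 CPM in the CTL and 1.07 to 2.06 CPM in the LIP libraries of day 2, and the pancreatic acinar markers 5.10 to 10.0 and 2.98 to 5.05 CPM. Their part in the differences was not tested.

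By the quasi-likelihood test of edgeR on day 2, the log2 fold change of LIP over CTL was 0.58 for Cirbp (SE 0.26, 95% interval 0.000576 to 1.17, unadjusted p = 0.0498, adjusted p = 0.302). For Rbm3 it was 0.53 (SE 0.18, 95% interval 0.12 to 0.93, unadjusted p = 0.0171, adjusted p = 0.213 in the same test). Of the 14041 genes tested on day 2, 0% had an adjusted p under 0.05, while 2322 had an unadjusted p under 0.05 and DESeq2 called 489. LIP 90 stood apart from the other LIP libraries of the day, with a chi-square per gene of 43.6 against LIP 96 and 34.8 against LIP 97, where all other pairs within a group had 2.82 to 11.9. Without LIP 90, edgeR called 2014 genes, and the log2 fold change was 0.71 for Cirbp (adjusted p = 0.0934) and 0.55 for Rbm3 (adjusted p = 0.0720). Cirbp lay at percentile 94.2 and Rbm3 at percentile 93.1 of all log2 fold changes. The adjusted p of DESeq2 was 0.272 for Cirbp and 0.0834 for Rbm3. With 1 library left out in turn, edgeR's log2 fold change ranged from 0.37 to 0.86 for Cirbp and from 0.41 to 0.75 for Rbm3, and the adjusted p stayed above the threshold in each case.

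The difference between the LIP effects of the 2 days holds the contrast that chose the pair and is given without a test. It was -0.15 (SE 0.28) on the log2 scale for Cirbp and 0.26 (SE 0.22) for Rbm3. Without CTL 97 of day 2, the value for Cirbp changed sign to 0.13. That of Rbm3 ranged from 0.10 (without CTL 94 of day 0) to 0.48 (without CTL 97 of day 2), and was 0.14 without CTL 93 of day 2.

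From day 0 to day 2, the members of the pair went opposite ways in both groups, Cirbp down and Rbm3 up. In the CTL group Cirbp fell by 1.18 on the log2 scale (SE 0.20, 95% interval -1.62 to -0.74, edgeR adjusted p = 0.000165), from 26.3 to 30.2 CPM on day 0 to 9.54 to 16.7 CPM on day 2, or 2.27-fold lower. In the LIP group it fell by 1.33 (SE 0.19, 95% interval -1.75 to -0.91, edgeR adjusted p = 3.6e-05), from 43.7 to 51.4 CPM to 15.8 to 24.1 CPM, or 2.51-fold lower. In both groups all 3 libraries of day 2 were below all 3 of day 0.

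Rbm3 rose by 0.92 on the log2 scale in the CTL group (SE 0.16, 95% interval 0.57 to 1.26, edgeR adjusted p = 0.000173), or 1.89-fold, and by 1.18 in the LIP group (SE 0.16, 95% interval 0.83 to 1.52, edgeR adjusted p = 1.75e-05), or 2.26-fold. Again, all 3 libraries of day 2 were beyond all 3 of day 0. The calls are to be read against a broad change of the cells on activation, since of the 15475 genes tested 35.3% were called higher and 33.7% lower on day 2 in the CTL group, and 36.6% higher and 35.2% lower in the LIP group. Cirbp lay at percentiles 15.8 (CTL) and 15.02 (LIP) of all log2 fold changes, and Rbm3 at 76.9 and 80.8, so neither was among the extreme genes of activation. The day 0 libraries of these tests are the ones in which the pair was chosen.

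With upper-quartile in place of TMM normalization, the median of all genes moved by -0.29 (CTL) and -0.32 (LIP), and with it Cirbp moved to -1.47 and -1.64 and Rbm3 to 0.63 and 0.86, without a change of direction or call. The summed myeloid markers were 4.56 to 11.9 CPM over the day 0 libraries and 0.680 to 2.06 CPM over those of day 2, and the NK cell markers 2.04 to 10.1 and 0 to 1.22 CPM. Pancreatic acinar markers summed to 0 to 0.150 CPM in the CTL libraries of day 0 and to 5.10 to 10.0 CPM in those of day 2, and to 0.137 to 10.2 and 2.98 to 5.05 CPM in the LIP libraries of the same days. The summed T cell markers were 1568 to 1698 CPM on day 0 and 1715 to 1989 CPM on day 2 in the CTL group, and 1453 to 1568 and 1662 to 1833 CPM in the LIP group. B cell markers summed to 0.961 to 2.89 CPM over the day 0 libraries, and on day 2 to 2.32 to 14.5 CPM in the CTL and 0.894 to 22.1 CPM in the LIP group. The part of these cells in the changes was not tested.

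**Figure D2:**
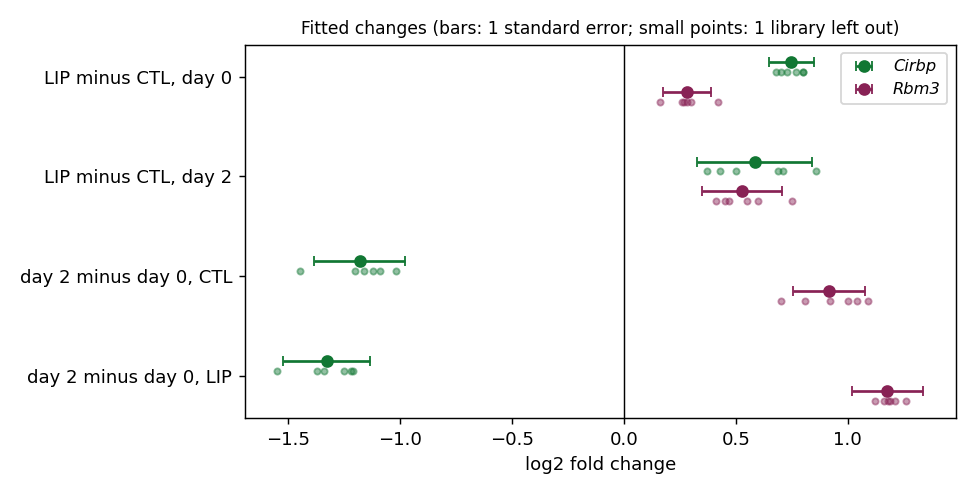
Fitted log2 fold changes of Cirbp (green) and Rbm3 (purple) in 4 comparisons, with bars of 1 standard error and small points for the same fit with 1 library left out. Both genes lie to the right of 0 in LIP minus CTL on both days, and on opposite sides of 0 in day 2 minus day 0.

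The order of the groups was therefore not the same for the pair. For Cirbp the means ran from CTL day 2 (12.4 CPM) through LIP day 2 (18.6) and CTL day 0 (28.0) to LIP day 0 (47.0), and the ranges of neighbours overlapped only between the 2 groups of day 2. For Rbm3 they ran from CTL day 0 (221 CPM) through LIP day 0 (268) and CTL day 2 (418) to LIP day 2 (606), and no ranges of neighbours overlapped, although those of day 0 all but touched.

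The counts of Rbm3 over those of Cirbp within a library do not depend on the scaling between libraries. In the CTL libraries of day 0, Rbm3 had 8.23, 6.17 and 9.48 counts for each count of Cirbp (88, 89, 94), whereas the LIP libraries (92, 93, 94) had 5.86, 5.33 and 5.98. On day 2 it had 34.4, 36.2 and 32.05 in the CTL libraries (92, 93, 97), whereas the LIP libraries (90, 96, 97) had 38.04, 27.5 and 34.6. The values of day 2 were above all those of day 0, and on day 2 the LIP libraries lay on both sides of the CTL libraries.

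The log2 ratio of Cirbp to Rbm3 dropped by 2.12 from day 0 to day 2 in the CTL group and dropped by 2.53 in the LIP group. In each case all 3 libraries of day 2 were below all 3 of day 0 (two-sided exact permutation test, p = 0.1, the smallest that 3 against 3 libraries can give). The day 0 libraries are again the ones in which the pair was chosen. The drop in the LIP group is therefore not read against that in the CTL group. On day 2 the LIP group differed from the CTL group by 0.05, with a pooled SD of 0.18 (two-sided exact permutation test, p = 0.9, n = 3 each), and the difference changed sign to -0.09 without LIP 96. On day 0 the LIP group was higher by 0.45, which is a description. In the CTL libraries of day 2 the ratio varied less than either gene, with an SD of 0.09 on the log2 scale against 0.42 for Cirbp and 0.34 for Rbm3. In the CTL libraries of day 0 the SD of the ratio was 0.32, against 0.10 for Cirbp and 0.25 for Rbm3. In the LIP libraries the SD of the ratio lay between those of the genes, at 0.09 on day 0 (0.12 for Cirbp and 0.03 for Rbm3) and 0.24 on day 2 (0.35 and 0.14). Among the CTL libraries of day 0, CTL 89 was the highest library in Cirbp and the lowest in Rbm3. On day 2 both genes put the libraries of each group in the same order, CTL 93, 92 and 97 and LIP 97, 90 and 96 from low to high.

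**Figure D3:**
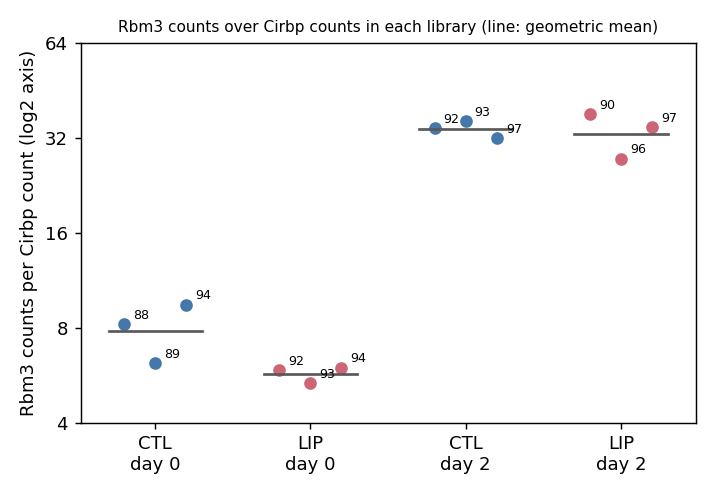
Counts of Rbm3 for each count of Cirbp in each library, on a log2 axis, with the 4 groups on the x axis, the label number beside each point and the geometric mean of each group as a line. The libraries of day 0 lie between 5.33 and 9.48 and those of day 2 between 27.5 and 38.04.

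Levels of different genes can be set side by side only per length, here as counts per kilobase of the default transcript (1321 bases for Cirbp and 5007 for Rbm3) scaled to a total of 1000000 in each library. On this scale Cirbp stood at 48.2 ± 4.48 in CTL day 0, 89.9 ± 9.44 in LIP day 0, 18.0 ± 5.34 in CTL day 2 and 23.9 ± 5.54 in LIP day 2 (SD, n = 3 each). Its place among 15397 genes ranked went from percentiles 81.6 and 90.4 on day 0 (CTL and LIP) to 59.1 and 67.97 on day 2. Rbm3 stood at 100.1 ± 14.8, 135 ± 5.87, 161 ± 37.7 and 206 ± 13.9 in the same order of groups, at percentiles 92.3, 94.4, 95.1 and 96.5. The per-length level of Rbm3 was thus 1.63 to 2.501 times that of Cirbp in the CTL and 1.41 to 1.58 times in the LIP libraries of day 0, and on day 2 8.46 to 9.54 and 7.25 to 10.04 times. With the median length of the protein-coding transcripts, 1340 bases for Rbm3, the means of the 4 groups became 7.85, 5.64, 33.7 and 32.9, so Rbm3 was higher than Cirbp per length by either choice, but by how much depends on the length taken.

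The other lists hold genes tied to the pair by relation, control or action, and are described by how many of their tested members were called, beside the shares of all genes given above. On day 2 no member of these lists was called between LIP and CTL by edgeR in the 6 libraries of that day, a fit in which 0 genes of the whole table were called. On day 0, of 16 heat shock genes tested, 13 were called lower in the LIP group and 0 higher, with a median log2 fold change of -0.81 against 0.01 for all genes, whereas the other lists had 0 called. Hsph1, a co-chaperone of Hsp70, stood at 271 CPM in the CTL and 87.8 CPM in the LIP group (log2 fold change -1.62, SE 0.08, edgeR adjusted p = 3e-06), and Stip1, which bridges Hsp70 and Hsp90, at 165 and 64.8 CPM (-1.35, SE 0.08, edgeR adjusted p = 1.56e-05). The number called lower was 4 with all 12 libraries in one fit, 8 without CTL 88 and 7 without LIP 93 or without LIP 94. The genes whose calls were lost without 1 library kept log2 fold changes of -1.01 to -0.54. In the main fit the same genes had -0.87 to -0.59. This list had been seen in earlier results on these libraries and is no independent support.

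On activation, 4 of the 16 CLK kinases and SR proteins were called higher and 6 lower in the CTL group. In the LIP group 5 were called higher and 6 lower, and the medians were -0.11 (CTL) and -0.10 (LIP). Of all genes, 35.3% were called higher and 33.7% lower in the CTL group, and 36.6% and 35.2% in the LIP group. The counts of this list are near these shares and are not read as a result about it. Clk1, a kinase of SR proteins, fell by 1.37 (SE 0.14, edgeR adjusted p = 1.59e-06) from 604 to 234 CPM in the CTL group and fell by 1.07 (SE 0.14, edgeR adjusted p = 1.42e-05) in the LIP group. Srpk2, another SR protein kinase, fell by 1.43 in the CTL group and fell by 1.48 in the LIP group, while the splicing factors Srsf9 and Srsf4 rose by 1.497 and 0.86 in the CTL group and by 1.38 and 1.12 in the LIP group. With upper-quartile normalization the calls of this list were 2 higher and 9 lower in each group.

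Of the 20 hnRNP proteins, which package nascent RNA and act on splice sites, 14 were called higher in each group and 1 (CTL) or 2 (LIP) lower, with medians of 0.49 and 0.58. With upper-quartile normalization 8 were higher in each group and 3 and 5 lower. Hnrnpab rose by 1.62 and 1.75, and Hnrnpa1 by 1.60 and 1.84, which took it from 242 to 735 CPM in the CTL and from 286 to 1023 CPM in the LIP group. Hnrnph3 fell by 0.59 in the CTL and fell by 0.54 in the LIP group, while Hnrnpr had a called log2 fold change of -0.33 in the LIP group. The call of Hnrnpr was lost without LIP 92, 93 or 94 of day 0 or LIP 97 of day 2, which left 1 hnRNP gene lower. Its log2 fold change was -0.38, -0.25 and -0.34 without LIP 92, 93 and 94, and -0.21 without LIP 97 (edgeR adjusted p = 0.199).

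Among the relatives of Rbmx, an X-linked gene of the same family as the pair, 2 of 3 were tested. Rbmxl1 rose by 1.73 (SE 0.12, edgeR adjusted p = 2.89e-08) in the CTL group and by 1.59 (SE 0.12, edgeR adjusted p = 5.52e-08) in the LIP group. Rbmx itself had a log2 fold change of -0.18 (edgeR adjusted p = 0.337) in the CTL group and fell by 0.52 (edgeR adjusted p = 0.0123) in the LIP group. The LIP call was lost without LIP 94 of day 0 (-0.46, edgeR adjusted p = 0.0508) or LIP 96 of day 2 (-0.33, edgeR adjusted p = 0.0563). Rbmxl1 is close in sequence to Rbmx, so its reads are uncertain.

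Cold shock domain proteins, a separate family that also binds RNA, had 4 of 5 tested members called higher and 0 lower in each group, and 3 higher with at least 10 counts in every library. One of the 4 was Ybx2, which passed the filter only through day 2. Ybx3 rose from 6.91 to 94.7 CPM in the CTL group (log2 fold change 3.78, SE 0.28, edgeR adjusted p = 7.21e-08) and from 7.48 to 90.8 CPM in the LIP group (3.60, SE 0.28, edgeR adjusted p = 9.33e-08). Ybx2 was at 0 in all day 0 libraries and averaged 1.52 and 0.922 CPM on day 2.

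Of 17 heat shock genes tested on activation, 7 were called higher and 7 lower in the CTL group. These counts are near the shares of all genes, 35.3% and 33.7%. In the LIP group 9 were higher and 2 lower, against 36.6% and 35.2% of all genes. The medians were 0.03 (CTL) and 0.84 (LIP). Between LIP and CTL the median of the list was -0.81 on day 0 and -0.07 on day 2, so the higher LIP median on activation holds the day 0 difference. Hspd1, the mitochondrial chaperonin, rose by 1.90 (SE 0.18, edgeR adjusted p = 6.45e-07) in the CTL and by 2.59 (SE 0.18, edgeR adjusted p = 4.17e-08) in the LIP group. In the CTL group Hspe1 rose by 1.41 and Hsph1 fell by 1.15. Hspa1b, an inducible Hsp70, had a called log2 fold change of -1.74 that rested on CTL 94 of day 0. It was counted at 3.46, 6.01 and 33.2 CPM in CTL 88, 89 and 94 of day 0 and at 3.40 to 5.72 CPM in the CTL libraries of day 2, and without CTL 94 the log2 fold change was -0.13 (edgeR adjusted p = 0.781). The call was also lost without CTL 92 or CTL 97 of day 2, but there the log2 fold change stayed at -1.64 and -1.60. In the LIP group Hsp90ab1 rose by 2.63, and Hsf1, the factor that drives heat shock transcription, fell by 0.62. Dnaja1 fell by 0.49, and its call was lost without LIP 94 of day 0 or without LIP 96 or LIP 97 of day 2, while without LIP 90 the log2 fold change was -0.73. The number lower in the LIP group was 5 without LIP 90 of day 2, 1 without LIP 96 or 97 of day 2 or LIP 94 of day 0, and 4 with upper-quartile normalization.

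Of 7 mRNAs that the proteins are known to bind, 6 were tested, and 4 were called higher and 1 lower in each group on activation, or 3 higher with at least 10 counts in every library. Txn1, the redox protein thioredoxin, rose from 14.0 to 136 CPM in the CTL group (log2 fold change 3.28, SE 0.27, edgeR adjusted p = 1.74e-07) and from 16.9 to 143 CPM in the LIP group (3.08, SE 0.27, edgeR adjusted p = 2.37e-07). Vegfa, a growth factor of blood vessels that passed the filter through day 2, averaged 0.334 CPM on day 0 and 18.9 CPM on day 2 in the CTL group, and 0.317 and 39.1 CPM in the LIP group. Clock, a core gene of the circadian clock whose transcript Cirbp is known to bind, was the 1 called lower. Of all genes, 33.7% (CTL) and 35.2% (LIP) were called lower. Clock fell by 0.96 (SE 0.12, edgeR adjusted p = 6.23e-06) in the CTL and fell by 0.94 (SE 0.12, edgeR adjusted p = 6.43e-06) in the LIP group. Its mean was 88.6 CPM in CTL day 0, 87.3 in LIP day 0, 45.5 in CTL day 2 and 45.4 in LIP day 2.

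Of the receptors through which CIRBP released from cells is known to act, Tlr4 and Il6ra were tested and both were called lower on day 2 in each group. Il6ra, a chain of the IL-6 receptor, fell by 1.58 (SE 0.11, edgeR adjusted p = 2.58e-08) from 364 to 122 CPM in the CTL group and fell by 1.70 (SE 0.11, edgeR adjusted p = 1.31e-08) from 374 to 116 CPM in the LIP group. Tlr4, low throughout, fell by 2.42 (SE 0.31, edgeR adjusted p = 1.24e-05) from 11.3 to 2.11 CPM and fell by 1.59 (SE 0.29, edgeR adjusted p = 0.000228) from 12.0 to 4.00 CPM. It is also expressed by the myeloid cells whose summed markers were lower on day 2, and their part in this was not tested. Trem1 was at 0 in every library, and Ly96, the partner of TLR4, averaged 0.502 to 1.14 CPM over the groups and did not pass the filter.

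**Figure D4:**
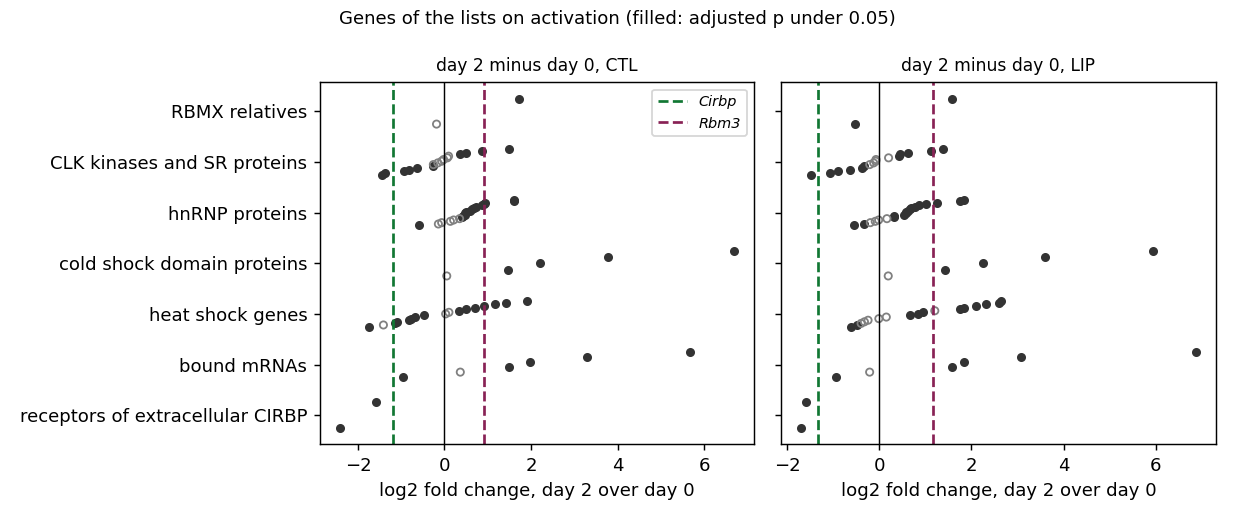
Log2 fold changes of day 2 over day 0 in the CTL group (left) and the LIP group (right) for each tested gene of 7 lists, filled where the edgeR adjusted p was under 0.05 and open otherwise, with dashed lines at Cirbp (green) and Rbm3 (purple). Most hnRNP genes lie to the right of 0, the CLK and SR genes lie on both sides, and both tested receptors lie to the left.

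The genes most like each member were sought over the 12 libraries, as those with the smallest root mean square difference between log2(CPM + 0.5) values centred on each gene's mean, among 11088 genes with a mean of at least 5 CPM. For Cirbp these were Pts (0.21), an enzyme of tetrahydrobiopterin synthesis, Dennd6b (0.23), Slc25a45 (0.24), Zfp970 (0.24) and Mipol1 (0.24), in log2 units. Pts averaged 46.2, 59.9, 18.2 and 27.3 CPM in CTL day 0, LIP day 0, CTL day 2 and LIP day 2. For Rbm3 they were Med8 (0.14), a subunit of Mediator, Mis18a (0.15), which takes part in centromere assembly, Tomm20 (0.15), a receptor of the mitochondrial outer membrane, Arl6ip4 (0.16) and Tmem14c (0.16). Tomm20 averaged 69.2, 78.9, 155 and 190 CPM in the same order of groups. The difference between Cirbp and Rbm3 themselves was 1.17, above the median of 0.84 between Cirbp and all candidates and of 0.65 between Rbm3 and all candidates. With candidates of at least 1 or at least 10 CPM, 3 of the 5 genes nearest to Cirbp and all 5 of those nearest to Rbm3 were found again. The cut at 10 CPM only drops candidates. A neighbour above that cut had to be found again, so this setting tests nothing.

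**Figure D5:**
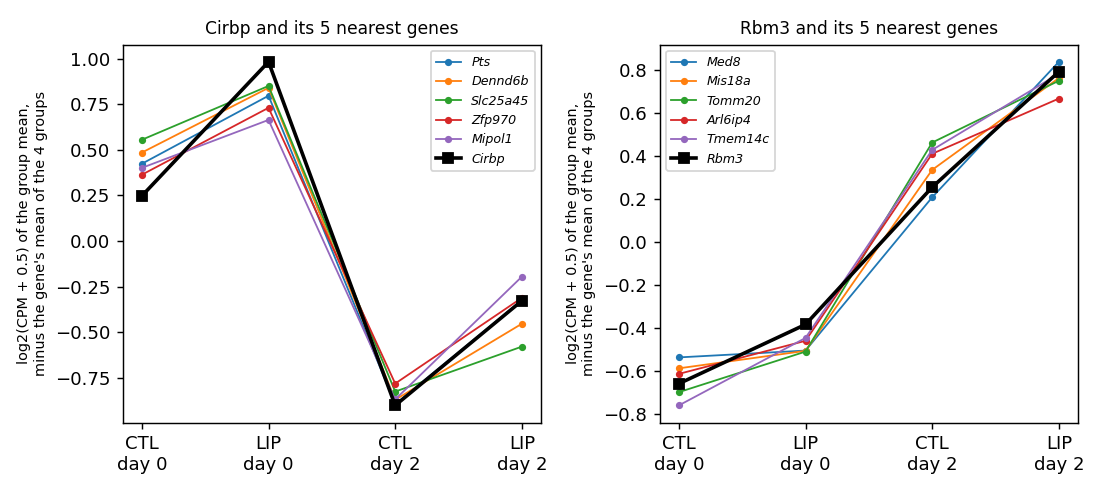
Group means of Cirbp (left) and Rbm3 (right) as black squares, and of the 5 genes nearest to each in pattern as coloured lines, as log2(CPM + 0.5) minus the mean of the gene's 4 group values. The lines of Cirbp and its neighbours are lower on day 2 than on day 0, and the lines of Rbm3 and its neighbours rise from CTL day 0 to LIP day 2.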

How the data were processed

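RNA of splenic CD4+ T cells was sequenced as 12 libraries of 4 groups, assigned by sample title. Per the labels and the study's methods, reads were trimmed with Trimmomatic and aligned to GRCm39, for which the paper names HISAT2. Trimmomatic is given as 0.38 in the submitters' processing notes and as an earlier version in the paper. Genes were counted with RSEM 1.3.0 and Bowtie2. The authors deposited expected counts per gene without normalization, in which 73267 values were not whole. The deposited results per day also hold signal, fold changes and p-values of the authors' own comparisons, which were not used, apart from their gene symbols (15174 genes). In these, 2 signal columns belong to no sample analysed here.

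Rounded counts were tested with edgeR 4.0.16 in R 4.3.3 (filterByExpr, TMM, quasi-likelihood test, Benjamini-Hochberg adjustment over all genes tested, threshold 0.05). LIP was compared with CTL within each day, and day 2 with day 0 in a fit of all 12 libraries. Ratios were tested with exact permutation tests over libraries. DESeq2 1.42.0, RLE and upper-quartile normalization, other filters, other sets of libraries in the fit, and leaving out each library were the alternatives. The scripts were tested on simulated counts with known changes. For LIP against CTL on day 2, 57.6% of changes of 1 on the log2 scale were called and 95.9% of changes of 2. For day 2 against day 0 in the CTL group the shares were 57.8% and 90.8%. False calls made up 5.81% (LIP against CTL) and 8.64% (day 2 against day 0) of the calls. The day 2 differences of Cirbp and Rbm3 between LIP and CTL were smaller than any change simulated. Figures were drawn with Python 3.11.15 and matplotlib 3.10.9. Of the pair, Cirbp had the fewer counts, with 80 in its lowest library against 1440 for Rbm3. Intervals cover the spread between libraries only.

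The members and lists were chosen with earlier results of these data known. Named are both members, genes that overlap them, at most 2 called genes in each direction per list and comparison, and the 5 genes nearest to each member. Values of Rbmx in the CTL group, Trem1 and Ly96 were added after they were seen. No erythroid record of Hbb-bs was found by symbol.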

Additional observations from a re-analysis of the deposited data

Results flagged for a closer look

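Of the listed genes, 2 heat shock genes had an interaction of group and day past the threshold in edgeR's quasi-likelihood test of all 12 libraries, which called 8 of 15475 genes and gave an unadjusted p under 0.05 for 2464. The interaction holds the LIP against CTL contrast of day 0, in which the heat shock genes were already known to be lower, so the values are given as a description. For Hsp90ab1, the constitutive cytosolic Hsp90, the LIP effect of day 2 minus that of day 0 was 1.46 on the log2 scale (SE 0.13), with log2 fold changes of -1.09 on day 0 and 0.35 on day 2 (edgeR adjusted p = 0.251 on day 2). For Hspa8, the constitutive Hsp70, the difference was 1.42 (SE 0.19), with -0.94 on day 0 and 0.46 on day 2 (edgeR adjusted p = 0.233 on day 2).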

How the results depend on the processing

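The log2 fold changes of Cirbp and Rbm3 kept their direction, and in the 3 tested comparisons their side of the threshold, under every alternative of normalization, tool, filter and set of libraries that was run and without any 1 library. From day 0 to day 2 with 1 library left out, Cirbp ranged from -1.45 to -1.02 (CTL) and from -1.55 to -1.21 (LIP), and Rbm3 from 0.70 to 1.09 and from 1.12 to 1.26. The difference of the LIP effect between the days ranged from -0.38 to 0.13 for Cirbp, changing sign without CTL 97 of day 2, and from 0.10 to 0.48 for Rbm3. The changes of single listed genes with 1 library left out were chosen after seeing the data. The log2 ratio of Cirbp to Rbm3 in LIP against CTL on day 2 ranged from -0.09 to 0.15, changing sign without LIP 96. The number of genes called over the whole table moved most. On day 0 it was 60, and 206 with DESeq2, 645 without a filter, 12 with all 12 libraries in one fit and 13 to 658 with 1 library left out, the highest without CTL 94. On day 2 it was 0, and 489 with DESeq2, 662 without a filter, 1 with at least 10 counts in every library, 775 with all 12 libraries in one fit and 0 to 2014 with 1 library left out, the highest without LIP 90. The cause was not tested. Under none of these settings was Cirbp or Rbm3 called on day 2. The ratio of the per-length level of Rbm3 to that of Cirbp was 7.85, 5.64, 33.7 and 32.9 (CTL and LIP of day 0, then of day 2) with the median protein-coding transcript and 5.03, 3.62, 21.6 and 21.1 with the shortest, both chosen after seeing the data, since the default transcript of Rbm3 is longer than most of its coding transcripts. No paired analysis was possible because the groups compared share at most 1 replicate number.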
